A study of Danio rerio with 6 samples.

Results

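The proteasome subunit genes of zebrafish were followed in 6 RNA-seq libraries of sorted embryonic cells. A gene was taken as a member when its symbol in the count table began with psm, a letter from a to g and a digit, in lower case, and when the 6 libraries together held at least 10 reads on it. Of 29361 gene rows, 53 had such a symbol and 51 of these had the reads. The 2 others, the lid subunit gene psmd7 and the activator gene psme4a, were listed at 0 reads in every library, where a count of 0 allows up to 3 reads, or 0.0510 to 0.0712 CPM (reads per 1000000 of the library size after TMM scaling, which adjusts for a few genes taking many reads), per library. The members with the fewest reads, psmb9a and psmb10 with 147 and 157 over the 6 libraries, stood well above that minimum. Whether reads of the 2 genes at 0 were lost to near-identical copies or to the gene models was not tested.

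Each library held cells of 48-hour embryos, with 3 libraries for the wild-type genotype and 3 for the mafba mutant genotype of allele uq4bh. Both groups carried an eGFP transgene driven by kdrl, a Vegf receptor gene that marks endothelial cells, and were sorted by flow cytometry. The labels name a single mutant allele and do not say how many embryos or pools stand behind a library. The protocol names brains as the dissociated tissue and a pdgfr beta reporter, so the sorted tissue is not settled by the labels.

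Reads on genes ranged from 43859736 to 52923490 per library, of which the 51 genes took 0.565% to 0.649%. The mutated gene mafba itself had 32.9, 45.8 and 33.3 CPM in the 3 wild-type and 30.975, 39.6 and 38.6 CPM in the 3 mutant libraries, so the groups overlapped and its RNA does not check the genotype labels. Of 8 endothelial markers, 7 matched a symbol, and their summed level was 315 to 469 CPM, against 978 to 1481 CPM for 7 leukocyte markers, 5937 to 14760 CPM for 5 neutrophil markers and 5448 to 9762 CPM for 5 epidermal markers. Muscle markers (6 of 6 matched) summed to 1448 to 4213 CPM, erythrocyte markers (5 of 5) to 1234 to 3494 CPM and neural markers (5 of 6) to 250 to 415 CPM, and none of the matched markers was at 0 in all libraries. In such bulk samples, fewer cells of a type and less RNA per cell cannot be told apart.

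The proteasome is the barrel-shaped protease that breaks down proteins tagged with ubiquitin. Its core particle is built from outer rings of alpha subunits, which gate the entrance, and inner rings of beta subunits, some of which cut peptide bonds. A regulatory particle caps the barrel, with a base that holds a ring of ATPases and a lid that removes ubiquitin. In immune cells and after interferon, inducible beta subunits can replace the constitutive catalytic ones and form the immunoproteasome, which favours peptides for class I antigen presentation. The roles given below were worked out mainly in yeast and mammals.

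The 51 genes fell into 9 alpha ring genes, 4 structural beta genes, 3 constitutive catalytic beta genes, 4 inducible beta genes, 7 ATPase genes, 4 other base genes, 8 lid genes, 4 activator genes, the PI31 gene psmf1, 6 assembly chaperone genes and psmc3ip. The last of these is named after an ATPase but is known in mammals as a cofactor of meiotic recombination, not as a subunit. Read counts separated the 4 rows classed as inducible by their symbols from the constitutive catalytic genes. Each of the former had 0 to 144 reads per library, each of the latter 5863 to 13261. A row written PSMB10 in capital letters, outside the rule, held 657 to 1606, and which gene it counts is not settled. No transcript length was at hand, so these are levels per gene and not per length, and the order of different genes was not established. Gene-to-gene statements below are confined to ranges of reads and to ratios followed from library to library.

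**Figure D1:**
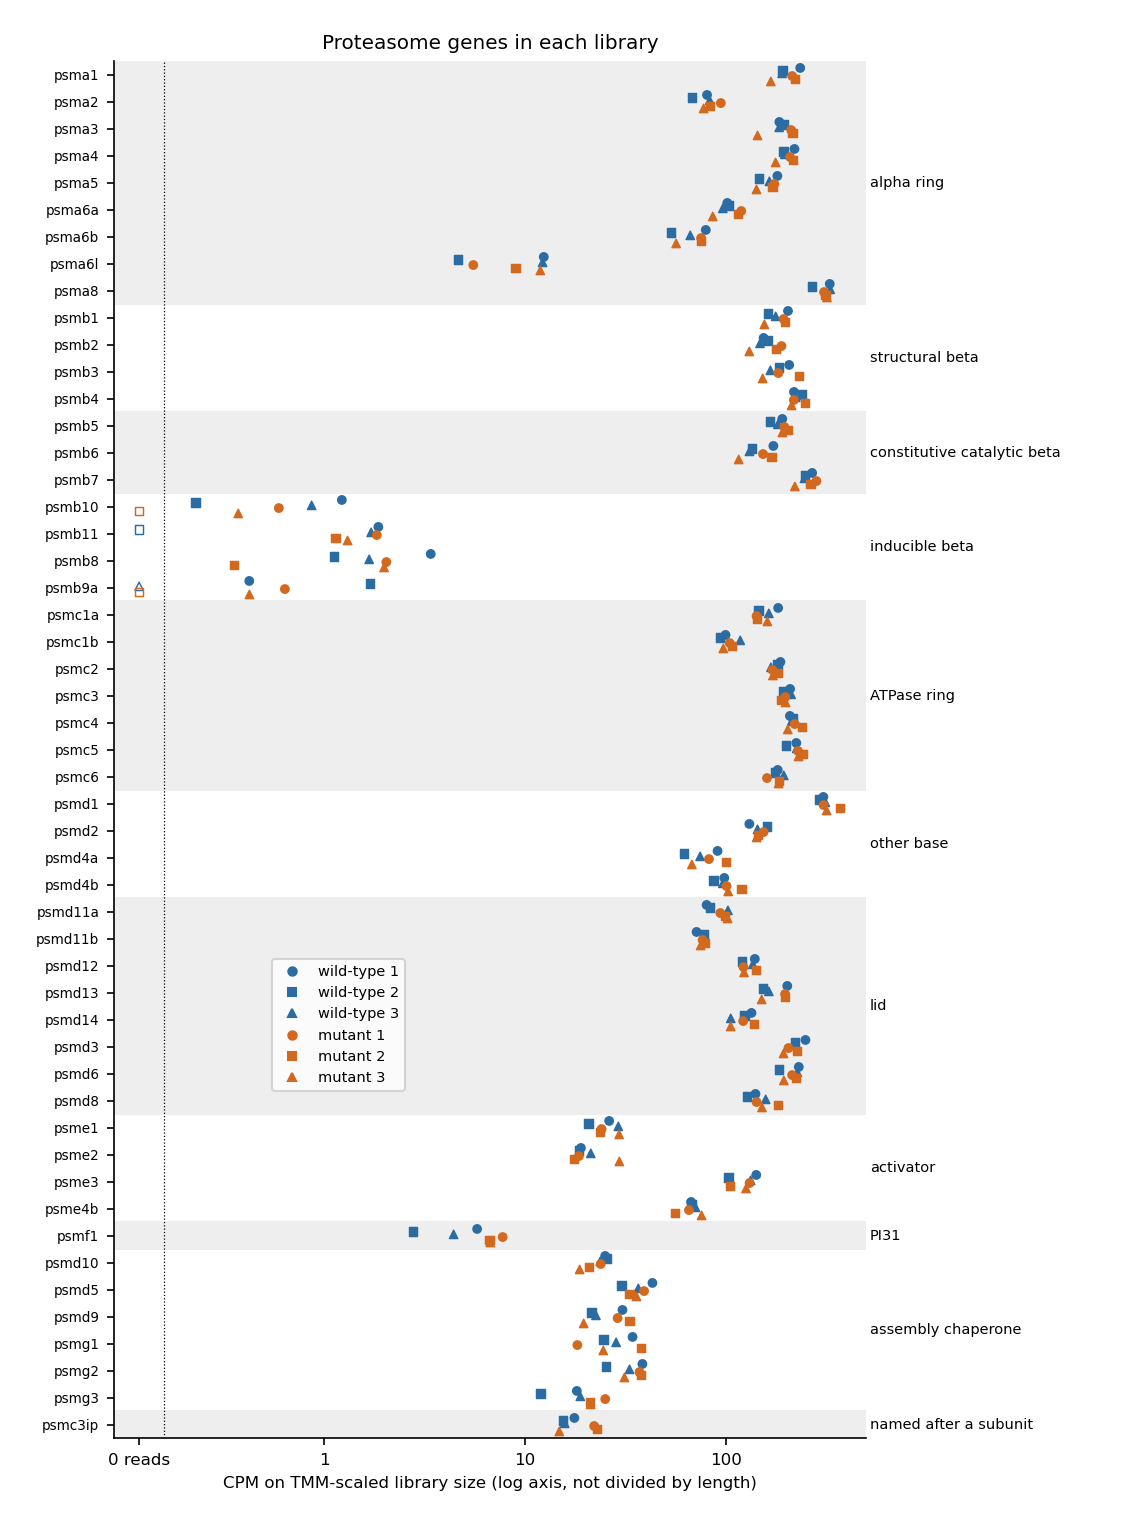
Level of each of the 51 genes in each library, in CPM on TMM-scaled library sizes (log axis, not divided by length), with wild-type libraries in blue and mutant libraries in orange and open marks at the left for 0 reads. The core and regulatory particle genes lie between 53.3 CPM (psma6b) and 370 CPM (psmd1), except psma6l near 10 CPM. The 4 inducible beta genes lie below 4 CPM and spread widely. The capital-letter row PSMB10, outside the rule and with more reads, is not shown.

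The core particle genes were expressed in every library, and the interval of each fitted difference between genotypes included 0. That interval was widest for psma6l, treated below, at 0.484-fold to 1.68-fold. The alpha ring gene psma8, for which the RefSeq table lists psma7 as a synonym, stood at 329, 269 and 330 CPM in wild-type libraries 1, 2 and 3 and at 308, 313 and 318 CPM in mutant libraries 1, 2 and 3. The mutant values lay inside the wild-type range on this TMM scale, but by library totals mutant 3 lay above it. The gene psma2 was at 80.5, 67.6 and 83.0 CPM in wild-type libraries and 94.3, 83.6 and 77.4 CPM in mutant ones. It had the smallest p of the alpha ring, and its groups overlapped, with a log2 difference (mutant minus wild-type) of 0.14 ± 0.16 (SE) and a 95% interval of -0.20 to 0.48. Among the 4 structural beta genes the smallest p was that of psmb2, with means of 154 ± 6.68 CPM for the wild-type and 166 ± 30.9 CPM for the mutant (SD, n = 3) and a log2 difference of 0.10 ± 0.16. Mutant 1 and 2 stood above every wild-type library for psmb2, and mutant 3, at 131 CPM, stood below every one.

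The constitutive catalytic subunits do the cutting inside the barrel. The gene for the chymotrypsin-like subunit, psmb5, stood at 190.65, 166 and 181 CPM in wild-type libraries and 195, 202 and 190.94 CPM in mutant ones. The groups did not overlap on these TMM-scaled levels, with wild-type 1 and mutant 3 nearly equal, and they overlapped with RLE factors or by library totals. Its log2 difference was 0.13 ± 0.13, with a fold interval of 0.894 to 1.34. For the caspase-like subunit gene psmb6 the values were 172, 134 and 131 CPM in wild-type libraries and 153, 169 and 116 CPM in mutant ones, and for the trypsin-like subunit gene psmb7 they were 268, 247 and 246 CPM and 282, 264 and 220 CPM. The groups overlapped in both genes, and mutant 3 was the lowest library, except that wild-type 2 was lowest for psmb7 by library totals. Their log2 differences were -0.00 ± 0.17 and 0.01 ± 0.14.

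One alpha gene, psma6l, varied more between libraries than the rest, and it also had the fewest reads of the class. The part of its low level in this spread was not tested, and psmf1, another row with few reads, spanned 2.79-fold. The row psma6l stood at 12.4, 4.65 and 12.2 CPM in wild-type libraries and 5.53, 8.95 and 11.9 CPM in mutant ones. Its highest library exceeded its lowest by 2.67-fold, with both extremes among the wild-type libraries, where the other 8 alpha genes spanned 1.23-fold to 1.496-fold. The groups overlapped, and the log2 difference was -0.15 ± 0.41. Its relatives varied less: the wild-type and mutant means (SD, n = 3) were 100.45 ± 3.57 and 107 ± 18.0 CPM for psma6a, and 66.4 ± 13.0 and 68.9 ± 10.8 CPM for psma6b. Per 1000 reads of psma6a there were 122, 44.99 and 127 reads of psma6l in wild-type libraries and 46.4, 78.2 and 139 in mutant ones, so wild-type 2 and mutant 1 were the low ones. The corresponding ratios of psma6b were 781, 516 and 689 in wild-type libraries and 632, 655 and 657 in mutant ones, which put the low value in wild-type 2 alone. The RefSeq table lists psma6b as a synonym of psma6l, so the names of these 2 rows may have moved between annotations, and reads shared by the copies carry an uncertain assignment.

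The 4 rows classed as inducible beta genes had few reads, including libraries with 0, and differed more between libraries of one genotype than between genotypes. The gene psmb8, listed today as psmb8a and encoding the inducible counterpart of psmb5, had 144, 49 and 87 reads in wild-type libraries and 96, 15 and 117 reads in mutant ones. These are 3.39, 1.12 and 1.68 CPM and 2.04, 0.356 and 1.99 CPM, a 9.53-fold span with the lowest value in mutant 2 and overlapping groups. The gene psmb9a, the counterpart of psmb6, had 18, 74 and 0 reads in wild-type libraries and 30, 0 and 25 in mutant ones. Its highest and one of its 0 values were both wild-type.

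The remaining rows were as sparse. The row psmb10 had 52, 10 and 45 reads in wild-type libraries and 28, 0 and 22 in mutant ones. That symbol belongs to the inducible counterpart of psmb7 in the RefSeq table but is also listed there as a synonym of psmb13a, so which of the genes was counted is not settled. The row psmb11 is listed as a synonym of psmb12. That gene also has the synonym beta1t, where psmb8a, psmb9a and psmb10 have beta5ia, beta1ia and beta2i. The row was classed as inducible by its number alone, and whether it is inducible was not tested. For psmb11 there were 79, 0 and 89 reads in wild-type libraries and 86, 48 and 77 in mutant ones. Every wild-type library but number 2 lay within the mutant range or just above it. In the RefSeq assembly GRCz12tu, psmb8a, psmb9a, psmb12 and psmb13a are neighbours, and psmb8a and psmb13a overlap. The counts were made on other builds, where this arrangement was not looked at. If it holds there, their reads may not be separable without strand information.

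**Figure D2:**
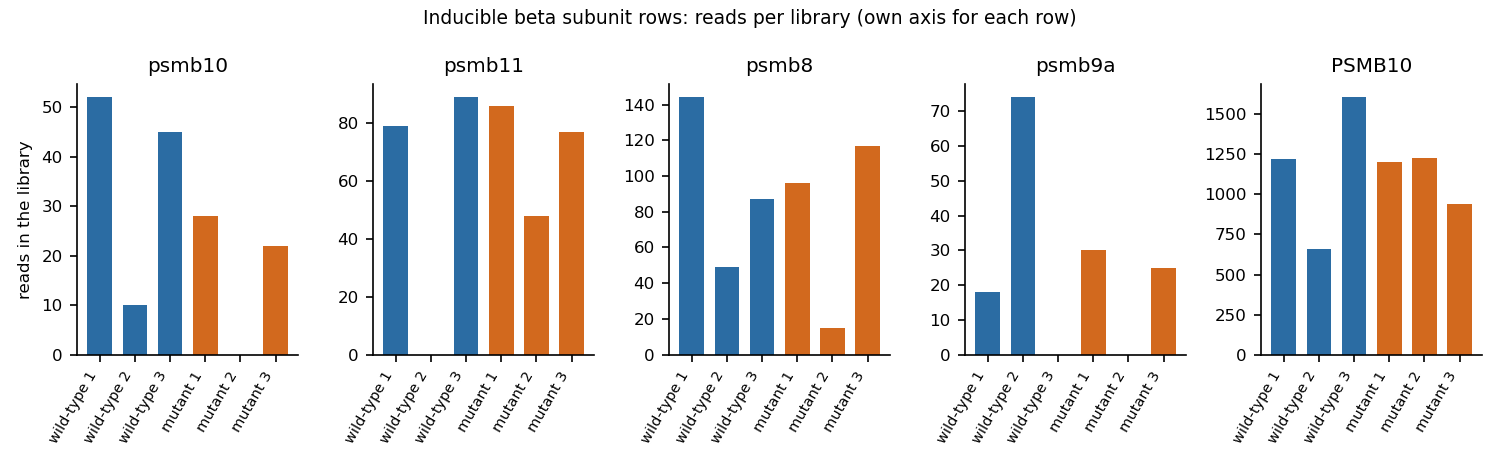
Reads per library on the 4 inducible beta rows and on the capital-letter row PSMB10, wild-type libraries in blue and mutant libraries in orange, each panel with its own axis from 0. Libraries with 0 reads are wild-type 2 for psmb11, wild-type 3 and mutant 2 for psmb9a and mutant 2 for psmb10, and PSMB10 shows 657 to 1606 reads in every library.

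The row PSMB10 in capital letters, outside the rule, held far more reads: 1222, 657 and 1606 in wild-type libraries and 1202, 1229 and 941 in mutant ones. That is 24.9 ± 8.62 and 23.6 ± 6.81 CPM (SD, n = 3), with a log2 difference of -0.08 ± 0.30 and overlapping groups. Which gene this row counts is not settled by the symbol. Of the 5 capital-letter rows whose names match the pattern, 2 were at 0, and the others were PSMB10, PSMD2_(1_of_2) at 97.5 ± 2.30 and 91.3 ± 3.39 CPM, and the alpha ring chaperone row PSMG4 at 20.75 ± 2.48 and 21.9 ± 7.05 CPM. The mutant libraries of PSMD2_(1_of_2), a copy of a base subunit gene, all lay below the wild-type ones on TMM-scaled levels but not by library totals, with a log2 difference of -0.09 ± 0.14.

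The balance between inducible and constitutive catalytic reads overlapped between the genotypes. Per 1000 reads of psmb5 there were 17.8, 6.75 and 9.24 reads of psmb8 in wild-type libraries and 10.45, 1.76 and 10.4 in mutant ones, means of 11.3 ± 5.795 and 7.54 ± 5.005 (SD, n = 3). Summed over the classes, the 4 inducible genes had 10.9, 5.57 and 7.625 CPM per 1000 CPM of the 3 constitutive ones in wild-type libraries and 8.10, 2.36 and 7.77 in mutant ones. The ranges overlapped, and mutant 2 was the lowest. In mutant 2 the row psmb11 held 48 of the 63 reads of these 4 genes. With the capital-letter PSMB10 row in place of psmb10, a choice made after seeing the data, the ratios were several times higher, at 54.6, 32.7 and 61.5 for the wild-type and 47.7, 48.3 and 37.4 for the mutant, and mutant 2 was no longer the lowest. The log2 differences of psmb8, psmb9a, psmb10 and psmb11 were -0.49 ± 0.82, -0.99 ± 2.11, -1.25 ± 1.84 and 0.26 ± 1.28. The sign of psmb9a turned in limma-voom, at 0.93, and with a replicate block, at 0.40, that of psmb8 without wild-type 1, at 0.07, and that of psmb11 without wild-type 2, at -0.33. For psmb10 the value was -2.05 in limma-voom, -2.11 with a replicate block, -2.02 without mutant 1, -0.67 without mutant 2 and -0.75 without wild-type 1. The intervals were wide, that of psmb8 running from 0.205-fold to 2.46-fold.

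Levels of immune cell markers are given beside these genes, because inducible subunits are abundant in leukocytes. The 7 leukocyte markers summed to 1216, 1207 and 1338 CPM in wild-type libraries and 978, 1481 and 1435 CPM in mutant ones. The 5 neutrophil markers summed to 6884, 9227 and 5967 CPM and to 5937, 14760 and 7245 CPM. On these TMM-scaled levels mutant 2 had the highest neutrophil and leukocyte sums, and it had the fewest reads of psmb8. By library totals the leukocyte sum was highest in mutant 3. Single leukocyte markers differed: on the TMM scale lcp1, coro1a, spi1b and wasb were highest in mutant 2, and ptprc, cybb and ncf1 in mutant 3. By library totals lcp1, coro1a and wasb were highest in mutant 3 as well. The level of ncf1 was 71.1 CPM in mutant 2 and 149 CPM in mutant 3. The 4 macrophage markers summed to 12.5, 8.02 and 22.4 CPM in wild-type libraries and 6.91, 7.645 and 9.23 CPM in mutant ones. The part of these cells in the inducible subunit reads was not tested.

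Genes of class I antigen presentation and the interferon response were read as companions of the inducible subunits. Of 30 listed genes 21 matched a symbol, 3 were at 0 (the antiviral genes mxb and rsad2 and the cytokine signalling inhibitor gene socs1b), and 18 were tested, 5 fitted higher and 13 lower in the mutant with a median log2 difference of -0.08. None passed. The peptide transporter gene tap1, for instance, stood at 2.10, 5.52 and 4.85 CPM in wild-type libraries and 2.36, 2.35 and 3.55 CPM in mutant ones, which overlap. By the rule the class I gene mhc1zaa, at 9.35 ± 3.75 and 5.65 ± 1.59 CPM, and the interferon-induced gene mxe were named. The gene mxe was at 0, 0 and 0.0963 CPM in wild-type libraries and 0.531, 1.401 and 0.221 CPM in mutant ones. These low counts did not overlap between genotypes, with 5 reads in wild-type 3 and 13 in mutant 3. Of the 18 tested genes, mxe was the 1 whose mutant libraries all lay above, against 3.38% of all genes tested. The log2 differences of mhc1zaa and mxe were -0.73 ± 0.40 and 4.34 ± 2.39, the latter with an interval of -0.85 to 9.53. Mutant 2, the lowest library for psmb8, was also the lowest for stat1b, isg15, b2m and mxc of this list. These stood there at 0.332, 0.783, 12.1 and 0.356 CPM. It was the highest library for mxe and for irf9, at 15.1 CPM, and the remaining tested genes had their extremes in other libraries. A link of these genes to psmb8 was not tested.

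On TMM-scaled levels the regulatory particle genes varied less between libraries than the core particle genes. The median SD of log2 CPM was 0.118 for the 19 genes against 0.165 for the 16. Among 7 ATPase genes, whose products unfold the substrate, that median was 0.0915. It was 0.447 for all 19381 genes tested and 0.206 for the 4185 of them with a mean log2 CPM above 5. These differences were not tested, and the order of core and regulatory genes depends on scaling. By library totals the 16 core genes summed to 0.246% to 0.274% of the reads on genes. The 19 regulatory genes summed to 0.283% to 0.33%, the wider range. The gene psmc2 stood at 187, 180 and 167 CPM in wild-type libraries and 170, 181 and 171 CPM in mutant ones. Its mutant range lay within the wild-type range on TMM-scaled levels but reached beyond it on both sides by library totals. The member with the smallest p in this class was psmc1a, at 182, 145 and 163 CPM and at 142, 143 and 161 CPM, a log2 difference of -0.14 ± 0.14 with overlapping groups. Its paralogue psmc1b had means of 104 ± 12.6 and 103 ± 5.33 CPM (SD, n = 3), a difference of -0.01 ± 0.15. Per 1000 reads of psmc1a there were 547, 644 and 720.5 reads of psmc1b in wild-type libraries and 735, 750 and 603.5 in mutant ones. The groups overlapped, so no shift between these paralogues was seen beyond the spread.

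One ATPase gene had groups that did not overlap on TMM-scaled levels, although they did by library totals. The gene psmc5 stood at 224, 199 and 225 CPM in wild-type libraries and 229, 240 and 230 CPM in mutant ones, a log2 difference of 0.11 ± 0.13 with a fold interval of 0.882 to 1.32. Wild-type 3 and mutant 1 were within a few CPM of each other.

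In the rest of the base, psmd1 and psmd2 encode the large scaffold subunits and psmd4a and psmd4b a receptor for ubiquitin chains. All 4 genes were fitted higher in the mutant, with a median log2 difference of 0.13, and none passed. Of all genes tested 49.3% were fitted higher. The row PSMD2_(1_of_2), outside the rule, was fitted lower, at -0.09, and psmd4a fell to -0.01 with a library left out. The gene psmd4b had 98.1, 86.7 and 96.5 CPM in wild-type libraries and 101, 119 and 103 CPM in mutant ones. The groups did not overlap on this scale but did by library totals, and the log2 difference was 0.20 ± 0.15 with a fold interval of 0.921 to 1.43. Its paralogue psmd4a, at 90.8, 61.8 and 74.4 CPM and at 82.3, 100.1 and 67.7 CPM, overlapped and differed by 0.14 ± 0.19. The ratio of psmd4a to psmd4b reads also overlapped, with 803 ± 109.8 per 1000 for the wild-type and 772 ± 97.9 for the mutant (SD, n = 3).

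Lid genes were similarly even on TMM-scaled levels. The gene psmd11b, for a lid scaffold subunit, had the smallest spread of the 51 genes there, though not by library totals. It stood at 71.4, 77.7 and 77.7 CPM in wild-type libraries and 76.6, 78.6 and 74.8 CPM in mutant ones. Its paralogue psmd11a varied more, with means of 88.5 ± 12.04 and 98.2 ± 4.12 CPM (SD, n = 3) and a log2 difference of 0.15 ± 0.15. The member with the smallest p was psmd8, a structural subunit gene, at 140, 128 and 158 CPM in wild-type libraries and 142, 181 and 151 CPM in mutant ones. Its groups overlapped, and the log2 difference was 0.16 ± 0.15. Of the 8 lid genes 5 were fitted higher and 3 lower, with a median of 0.01.

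Activators open the core particle in place of the regulatory particle. The interferon-responsive pair psme1 and psme2 had wild-type and mutant means (SD, n = 3) of 25.4 ± 4.28 and 25.7 ± 3.22 CPM for psme1, and of 19.6 ± 1.47 and 21.9 ± 6.60 CPM for psme2. For psme2 mutant 3, at 29.5 CPM, was the highest library and the other 5 lay between 17.6 and 21.2 CPM. Its log2 difference was 0.16 ± 0.25. The nuclear activator gene psme3 stood at 126 ± 20.3 and 121 ± 13.9 CPM, and psme4b, whose product caps proteasomes in the nucleus, at 68.3 ± 1.92 and 65.5 ± 10.04 CPM. All 4 activator genes had overlapping groups and differences from -0.06 to 0.16.

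The 2 largest fitted differences outside the inducible class belonged to a regulator and an assembly factor. The gene psmf1, which encodes the proteasome-binding protein PI31, stood at 5.77, 2.77 and 4.41 CPM in wild-type libraries and 7.74, 6.65 and 6.71 CPM in mutant ones. Every mutant library exceeded every wild-type one, also with RLE or upper-quartile factors and by library totals, with means of 4.32 ± 1.503 and 7.03 ± 0.612 CPM (SD, n = 3) and a log2 difference of 0.70 ± 0.38. Its interval ran from 0.916-fold to 2.90-fold, and the adjusted p of 1 (edgeR) did not pass.

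The chaperone gene psmg3, whose product helps to build the alpha ring, stood at 18.1, 11.955 and 18.8 CPM in wild-type libraries and 25.1, 21.1 and 21.2 CPM in mutant ones. The groups did not overlap on this scale but did by library totals, with a log2 difference of 0.46 ± 0.24 and a fold interval of 0.956 to 1.98 (adjusted p = 1, edgeR). Its partner in the alpha ring chaperones, PSMG4, overlapped between genotypes, as given above, and so did psmg1, at 29.1 ± 4.91 and 26.8 ± 9.94 CPM, and psmg2, at 32.2 ± 6.62 and 35.4 ± 3.64 CPM. The base chaperone genes psmd5, psmd9 and psmd10 differed by -0.02 ± 0.19, 0.13 ± 0.24 and -0.23 ± 0.20. For psmc3ip the values were 17.6, 15.4 and 15.8 CPM in wild-type libraries and 22.1, 22.7 and 14.8 CPM in mutant ones, with mutant 3 below all wild-type libraries, though not by library totals, and a log2 difference of 0.29 ± 0.24.

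**Figure D3:**
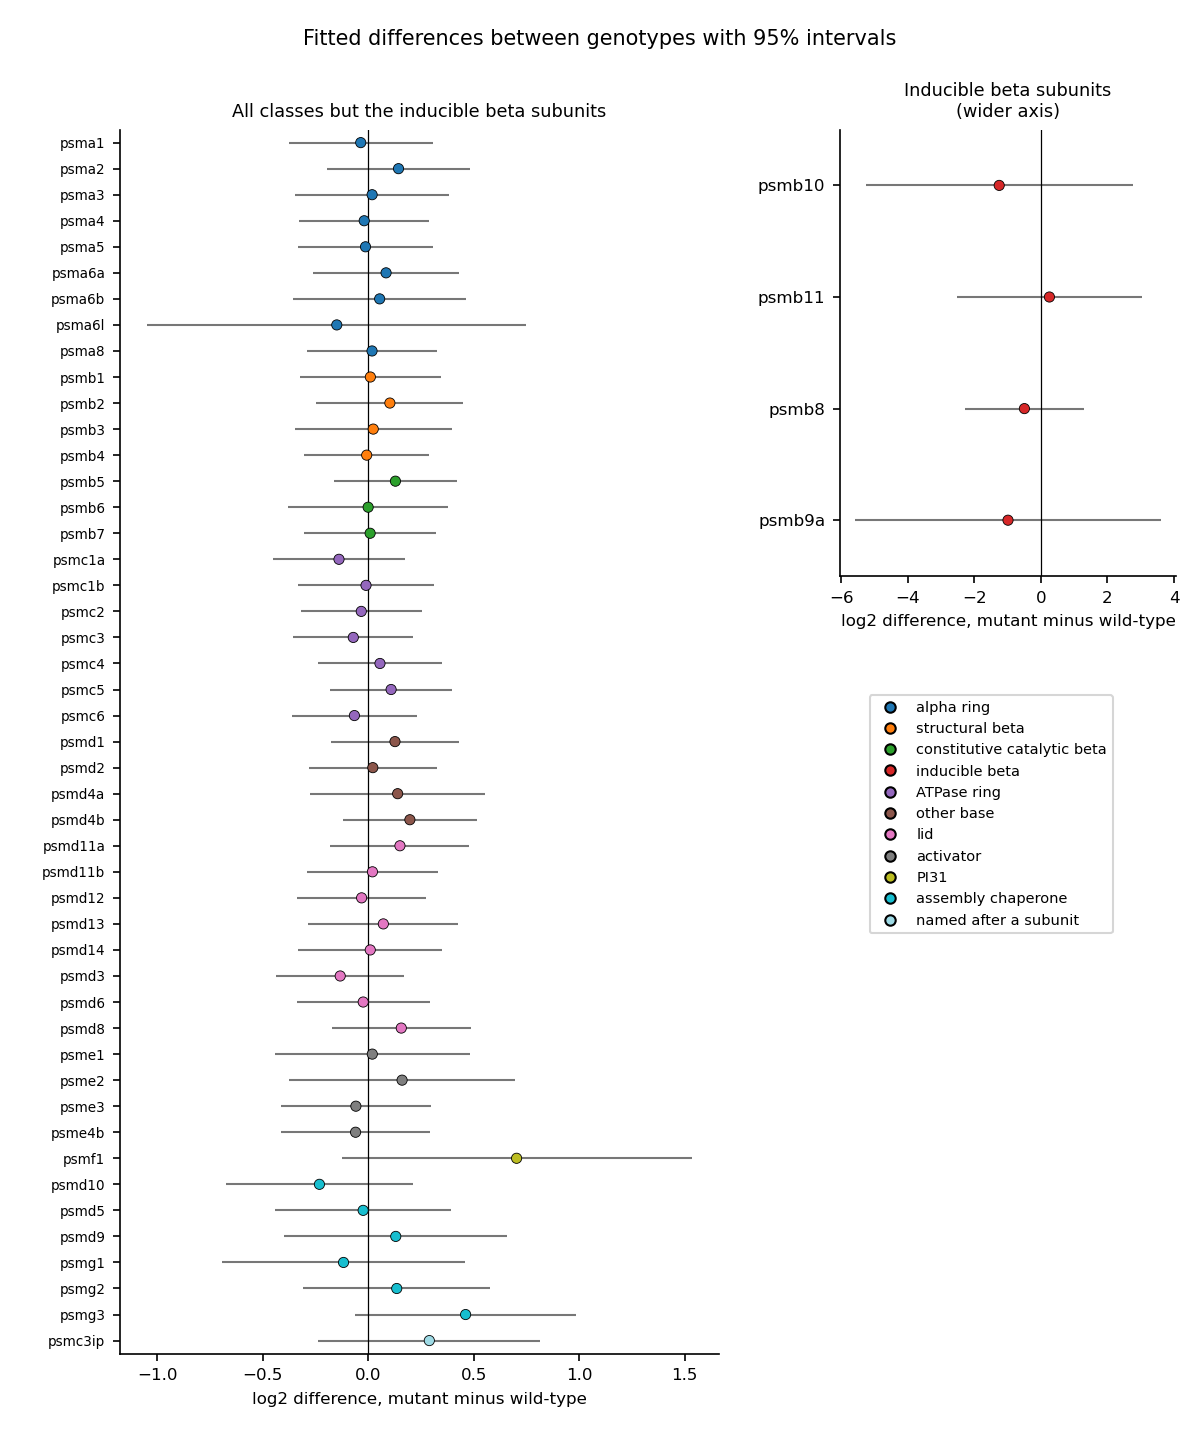
Fitted log2 difference of each gene (point, mutant minus wild-type, coloured by class) with its 95% interval (line), the 4 inducible beta genes on a wider axis at the right. All 51 intervals include 0, and those of the inducible genes, psma6l and psmf1 are the ones that reach past 0.5-fold or 2-fold.

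The question of whether the mafba mutation altered the proteasome genes was put to one fit over all 19381 genes tested, to which all 51 genes belonged. Of the 51 genes 0 passed at an adjusted p under 0.05 (Benjamini-Hochberg) in the quasi-likelihood test of edgeR, where 0% of all genes passed. The number at an unadjusted p under 0.05 was 0 as well, against 1.57% of all genes, and DESeq2 and limma-voom gave 0 calls and 0 at that unadjusted level. By sign, 29 genes were fitted higher and 22 lower in the mutant, with a median log2 difference of 0.02, where 49.3% of all genes were fitted higher and their median was 0.00. On TMM-scaled levels, in 5 genes (psmb5, psmc5, psmd4b, psmf1 and psmg3) the 3 mutant libraries all lay above the 3 wild-type ones, against 3.38% of all genes tested, and in 0 genes they all lay below, against 3.36%. In either direction that makes 5 of 51 genes, against 6.74% of all genes tested. These counts depended on the scaling, as was looked at after seeing the data: 4 genes lay above and 0 below with RLE factors, 5 and 1 with upper-quartile factors, and 1 (psmf1) and 2 (psmd3 and psmd10) by library totals, where 3.81% of all genes lay above and 2.76% below. Separate pools of embryos for the libraries of a genotype are not stated, so the spread behind the tests may be that of technical repeats. With 3 libraries against 3, an exact two-sided permutation test of a single gene cannot go below 0.10.

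The intervals limit how large a difference in these bulk levels could have gone unseen, provided that the libraries are separate pools. With technical repeats they would be too narrow. They do not bound a change within endothelial cells alone, because marker RNA of other cell types was present. For 45 of the 51 genes the 95% interval lay within 0.5-fold to 2-fold of the wild-type level. The 6 others were the 4 inducible genes, psma6l and psmf1. For the 19 regulatory particle genes the bounds went no further than 0.732-fold and 1.47-fold, and for the core particle genes other than psma6l no further than 0.768-fold and 1.398-fold. From the fitted value to a bound, the interval had a median of 1.27-fold over the 51 genes, 1.76-fold over all genes tested and 1.31-fold over 4185 highly expressed ones (mean log2 CPM above 5).

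Between libraries most of the genes were steadier than the median gene. The SD of log2 CPM was under the median of all genes in 45 of 51 genes, the exceptions being the same 6 genes. Of the 38 genes whose mean log2 CPM exceeded 5, the SD was under the median of such genes (0.206) in 32, and above it in psma3, psma6b, psmb3, psmb6, psmd4a and psmg2.

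The libraries still differed in common for the core particle. The median deviation of the 16 core genes from their own means was 0.10, -0.09 and -0.03 log2 units in wild-type libraries 1, 2 and 3 and 0.09, 0.13 and -0.21 in mutant libraries 1, 2 and 3. Mutant 3 was the lowest library for 11 of the 16 and wild-type 2 for the other 5. On this TMM scale the 19 regulatory genes moved less, with 0.01, -0.115 and 0.01 in wild-type libraries and 0.01, 0.09 and -0.03 in the mutants. Wild-type 2 was lowest for 8 of them and mutant 3 for 4. By library totals the regulatory sums had the wider range, as given above. Which library is lowest depends on scaling: relative to library totals, wild-type 2 was lowest for 9 core genes and mutant 3 for 6. Mutant 3 had the largest scaling factor of the 6 libraries, 1.11, the most reads on genes and the most genes detected, 21098 against 19230 to 20305 in the others. The part of these in its low core values was not tested.

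A ratio within a library is free of that scaling. The summed CPM of the 19 regulatory genes divided by that of the 16 core genes was 1.115, 1.15 and 1.195 in wild-type libraries and 1.076, 1.136 and 1.259 in the mutants. The means were 1.15 ± 0.0401 and 1.16 ± 0.0933 (SD, n = 3), and the groups overlapped. Libraries numbered 3 had the highest ratio in each genotype, although no label says what a number shares. Summed levels were also alike: 2648 ± 165.5 and 2694 ± 295 CPM for the core, 3052 ± 141 and 3101 ± 175.5 CPM for the regulatory particle, 239 ± 25.55 and 234 ± 29.7 CPM for the activators, and 164 ± 25.2 and 169 ± 16.55 CPM for the chaperones (wild-type and mutant).

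**Figure D4:**
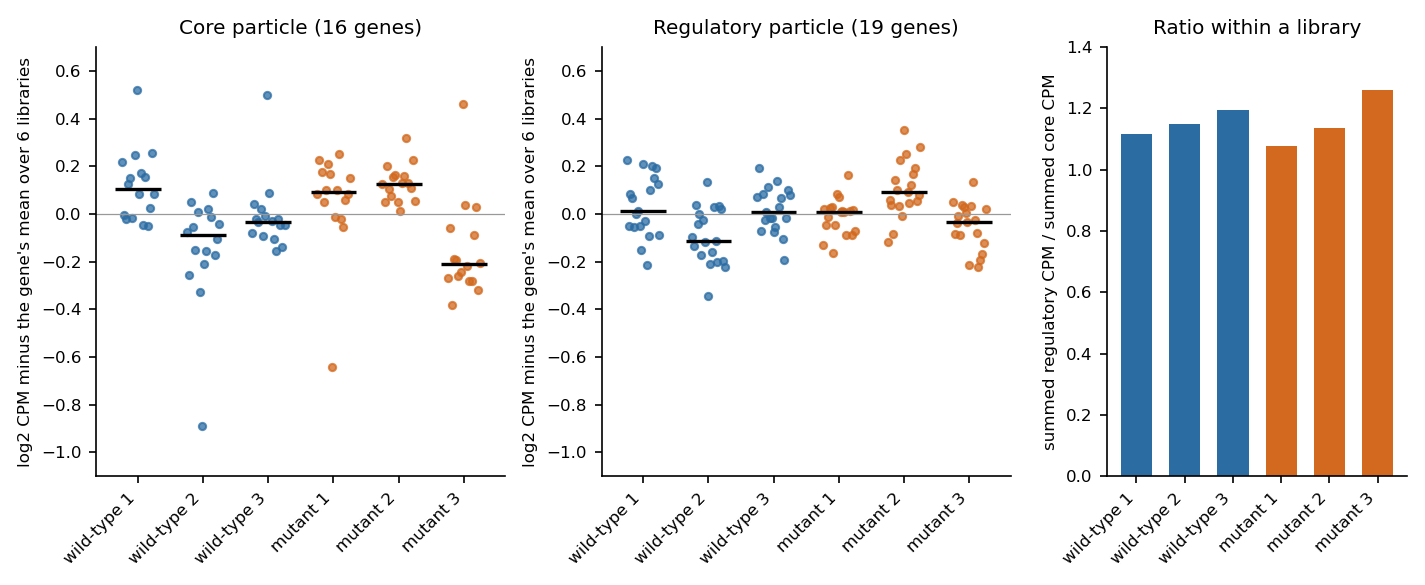
Left and middle, deviation of each core and regulatory particle gene from its own mean log2 CPM in each library (points) with the median (black bar). Right, ratio of summed regulatory to summed core CPM in each library; mutant 3 has the lowest core median, -0.21 log2 units, and the highest ratio, 1.259.

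Genes that work with the proteasome gave a similar picture. Of 15 tested proteasome-associated factors 8 had a higher and 7 a lower fitted value in the mutant (median 0.00 on the log2 scale) and 0 passed. The ubiquitin receptor gene adrm1 stood at 132.7, 117.5 and 131 CPM in wild-type libraries and 128, 130.5 and 128 CPM in mutant ones. These mutant values lay within the wild-type range, but by library totals mutant 3 lay above it. The maturation factor gene pomp stood at 117, 130 and 121 CPM and at 143, 153 and 95.9 CPM, with mutant 3 the lowest. The members with the smallest p were txnl1, a thioredoxin-like proteasome partner, at 0.14 ± 0.14, and the ubiquitin ligase gene ube3c, at -0.16 ± 0.30.

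The transcription factor Nrf1, encoded by nfe2l1a and nfe2l1b, raises proteasome genes when the proteasome is blocked and binds DNA together with small Maf proteins. Of 16 tested genes of this list 6 were fitted higher and 10 lower (median -0.04), and 0 passed. The gene nfe2l1a differed by 0.08 ± 0.28 and nfe2l1b by -0.04 ± 0.21, with overlapping groups. Smallest in p were sqstm1, the gene of an autophagy receptor for ubiquitinated cargo, at -0.39 ± 0.21, with values of 189, 309 and 189 CPM in wild-type libraries and 154, 162 and 209 CPM in mutant ones, and the blood cell factor gene nfe2, at -0.61 ± 0.44.

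Upstream, 11 of 21 tested genes of ubiquitin and its activation were fitted higher and 10 lower (median 0.01), with the conjugating enzyme genes ube2nb at 0.23 ± 0.15 and cdc34b at 0.21 ± 0.17. Of 14 tested genes of the segregase p97 and of protein degradation associated with the endoplasmic reticulum 6 were higher and 8 lower (median -0.01). The genes ufd1l and derl2 stood at 0.23 ± 0.19 and 0.30 ± 0.25. Of 18 tested genes of autophagy and the lysosome 9 were higher and 9 lower (median -0.02), with the lysosome regulator gene tfeb at -0.60 ± 0.36 and the autophagy kinase gene ulk1a at -0.46 ± 0.33. In each of these lists 0 genes passed the edgeR test over all genes, against 0% of all genes tested.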

How the data were processed

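The authors deposited raw counts, that is whole reads for each gene symbol, in 1 file per library and again in a table of the series; all 29361 gene rows held the same counts in both. bcl2fastq, STAR, HTSeq and the builds danRer7 and Zv9 are named in the submitters' processing notes; their versions, the annotation and whether strand was used are not given there. Per the labels' protocols the RNA was amplified first, so counting limits do not cover amplification. The 5 summary rows of each file, which held 22.1% to 28.1% of its summed counts, were left out.

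Counts were fitted in R 4.3.3 with edgeR 4.0.16 (default low-count filter, TMM factors, robust quasi-likelihood test, no block, all 6 libraries), which tested 19381 genes, and p-values were adjusted over all of them (Benjamini-Hochberg, threshold 0.05). CPM are counts per 1000000 of TMM-scaled library size, and the SD of log2 CPM uses a prior count of 2. DESeq2 1.42.0, limma 3.58.1 (voom with quality weights), other scalings and filters, a replicate block and each library left out were alternatives. The tests were tested on simulated data. There the libraries were drawn independently, and differences were set only in genes above a minimum of reads. That run therefore cannot speak to technical repeats, to a pairing or to the rows with the fewest reads. Levels per coding length had been planned, but no transcript lengths were at hand, so that comparison and the naming of genes by it were not made. No sequences are shown.

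The members and lists were chosen with earlier results of these data known. Genes named are the catalytic, inducible and paralogous members, the smallest p of each class, members whose genotypes do not overlap, and the 2 smallest p of each pathway list. Added after their values were seen were psma8, psmc2, adrm1, pomp, tap1, stat1b, isg15, b2m, mxc, irf9, nfe2l1a and nfe2l1b. The other activators and chaperones and the capital-letter rows were added in the same way. Of 181 list entries, 151 matched a symbol. Of the 51 symbols, 48 stand in the RefSeq table of the assembly GRCz12tu and 3 matched through a synonym; its coordinates were not printed, because the builds differ. Figures used matplotlib 3.10.9 under Python 3.11.15.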

Additional observations from a re-analysis of the deposited data

How the results depend on the processing

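The number of changed genes was 0 and the number of changed proteasome genes was 0 in edgeR with RLE factors, upper-quartile factors, library totals, no filter, the strict filter (which tested 47 of the 51 genes), no robust estimation, the table of the series, a threshold of 0.1 and each library left out (0 to 0), and in DESeq2 and limma-voom; the lowest adjusted p was 0.0829 over all genes, in DESeq2, and 0.999 among proteasome genes. With the replicate block the counts were 0 and 0 (lowest adjusted p 0.0535 over all genes). In edgeR 523 genes had an unadjusted p under 0.05 with the block and 305 without it. A measure of how far same-numbered libraries deviated together was 0.0598, 0.0211 and 0.140 across genes for numbers 1, 2 and 3. Wild-type 3 and mutant 3 were each other's best match. Wild-type 1 and wild-type 2 both matched mutant 2 best, and mutant 1 and mutant 2 both matched wild-type 1 best. Across proteasome genes the values were 0.479, -0.0899 and -0.291. No label says what a number shares, so a pairing was not established. Of 396 alternative values for 25 named genes, 369 kept their sign and 27 in 14 genes did not, 4 of them outside the left-out libraries: psmb7 with upper-quartile factors (-0.002518), psmb6 in limma-voom (0.01591), and psmb9a in limma-voom (0.9268) and with the replicate block (0.4034). With each library left out in turn, psma6a ranged from -0.002981 to 0.22, psma6b from -0.08083 to 0.21, psma6l from -0.48 to 0.09738, psmb2 from -0.001948 to 0.25, psmb6 from -0.12 to 0.14, psmb7 from -0.06769 to 0.10, psmb8 from -0.81 to 0.06892, psmb9a from -1.71 to 0.74, psmb11 from -0.33 to 0.74, psmc1b from -0.07778 to 0.0919, psmd11b from -0.01673 to 0.04091, psmd4a from -0.01211 to 0.30, psme2 from -0.12 to 0.30 and psme4b from -0.18 to 0.04705. The cause was not tested. Values of psmf1 (0.47 to 0.97), psmg3 (0.28 to 0.58), psmd4b (0.12 to 0.24), psmb5 (0.07714 to 0.18) and psmc5 (0.05285 to 0.14) stayed above 0 in these fits and did not pass; psmf1 reached an unadjusted p under 0.05 only without wild-type 1, with 0.97. The median of the 4 inducible genes was -0.74, 0.21 in limma-voom, -0.15 with the replicate block and -1.26 to -0.22 with each library left out. Ratios of inducible to constitutive reads per coding length could not be computed. Low read numbers limit the inducible genes and the rows at 0.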
